A study of Mus musculus with 8 samples.

Results

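The 7 genes described here encode proteins that sense DNA in the cytosol, pass on that signal, degrade cytosolic DNA or break down deoxynucleotides. The genes are Cgas, Ddx41, Sting1, Tbk1, Ikbke, Samhd1 and Trex1. They were chosen by symbol, as the 7 of the 57353 rows of the deposited mouse expression table that carry these names; the rule uses no measured value, but the choice of names was made with earlier results of these data known. Of the 7, 6 had enough reads to be tested and Trex1 was listed at 0 in every library. RNA was sequenced from B16-OVA cells, a line of mouse B16F10 melanoma that makes the model antigen ovalbumin and is labelled wild type. The 4 Control libraries came from cells with no treatment. The 4 HMF libraries came from cells kept for 24 h with magnetic rod-shaped micromotors (MagRMs) after which a high-frequency magnetic field was applied, and all cells were collected 6 h after treatment. The study asked how this mechanical treatment bears on tumour cell death. No group with micromotors alone or with the field alone was analysed here, so the effects of the micromotors and of the field cannot be told apart, and the labels do not say whether the replicates were separate cultures. The p-values therefore speak only of the spread among these 8 libraries, which may be technical.

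In this pathway cGAS, the product of Cgas, binds double-stranded DNA in the cytosol and makes the second messenger cGAMP, which binds STING in the membrane of the endoplasmic reticulum. STING then moves towards the Golgi and recruits the kinase TBK1, which phosphorylates the transcription factor IRF3 and so starts transcription of the interferon-beta gene, Ifnb1. TREX1 degrades DNA in the cytosol and SAMHD1 hydrolyses deoxynucleotides, and loss of either gene in humans causes an interferon-driven inflammatory disease. Tumours, melanoma among them, often have low levels of cGAS or STING.

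Total counts were 13973961 to 19295358 per library, with the highest in HMF 4, and 15082 genes passed the count filter. edgeR's quasi-likelihood test called 4030 of them changed at a Benjamini-Hochberg adjusted p below 0.05, which is 26.7% of those tested, with 13.7% that rose and 13.0% that fell. The HMF libraries lay all above or all below the Control libraries for 29.1% of the genes tested. The median log2 fold change of all genes tested was -0.02. Levels are given as CPM, the read count relative to the TMM-scaled library size. Melanocyte genes were abundant in every library, at a summed 16432 to 18436 CPM in Control and 12417 to 15226 CPM in HMF, and 4 of 7 fell (Tyrp1, Dct, Tyr and Mitf); each of these calls was lost on leaving out HMF 2, and those of Dct, Tyr and Mitf also on leaving out Control 2, 3 or 4. All 4 T and NK cell markers were at 0, as were the macrophage markers Adgre1 and Itgam and the dendritic cell marker Flt3; Itgam has 31.3% of its exonic bases unshared with another gene. Over 8 macrophage markers the summed level was 8.17 to 11.8 CPM in Control and 14.6 to 16.1 CPM in HMF. Most of it came from Cd68, which rose by 0.72 ± 0.14 on the log2 scale. Lyz2, the only other macrophage marker tested, was not called (-0.47 ± 0.27, edgeR adjusted p = 0.228). Ptprc, Csf1r, Fcgr1 and Cd14 had 2, 9, 6 and 37 reads over all 8 libraries. The summed level of 3 dendritic cell markers was at most 0.0563 CPM in Control and 0.206 CPM in HMF. That of 2 B cell markers was 0.296 to 1.14 CPM and at most 0.642 CPM, and that of 4 fibroblast markers 18.3 to 23.9 CPM and 10.6 to 14.4 CPM. The part of these markers in the results below was not tested.

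Of the 6 tested genes of the pathway, 5 rose and none fell, against 13.7% of all tested genes that rose. Samhd1 rose 3.79-fold, and 4 others rose by far less: the kinase genes Ikbke by 0.48 and Tbk1 by 0.32, the helicase and reported sensor gene Ddx41 by 0.27, and the adaptor gene Sting1 by 0.18 on the log2 scale. Cgas, the gene of the sensor that makes cGAMP, was not called. In 4 of the 6 (Samhd1, Ikbke, Tbk1 and Sting1) every HMF library lay above every Control library, which held for 14.7% of all tested genes. The calls of Samhd1, Ikbke and Tbk1 were kept under all 19 other settings tried, while the calls of Sting1 and Ddx41 were not: the count of 5 fell to 3 on leaving out Control 1, Control 3, Control 4, HMF 2 or HMF 4. In bulk RNA, fewer cells that express a gene and less RNA of it per cell cannot be told apart.

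**Figure D1:**
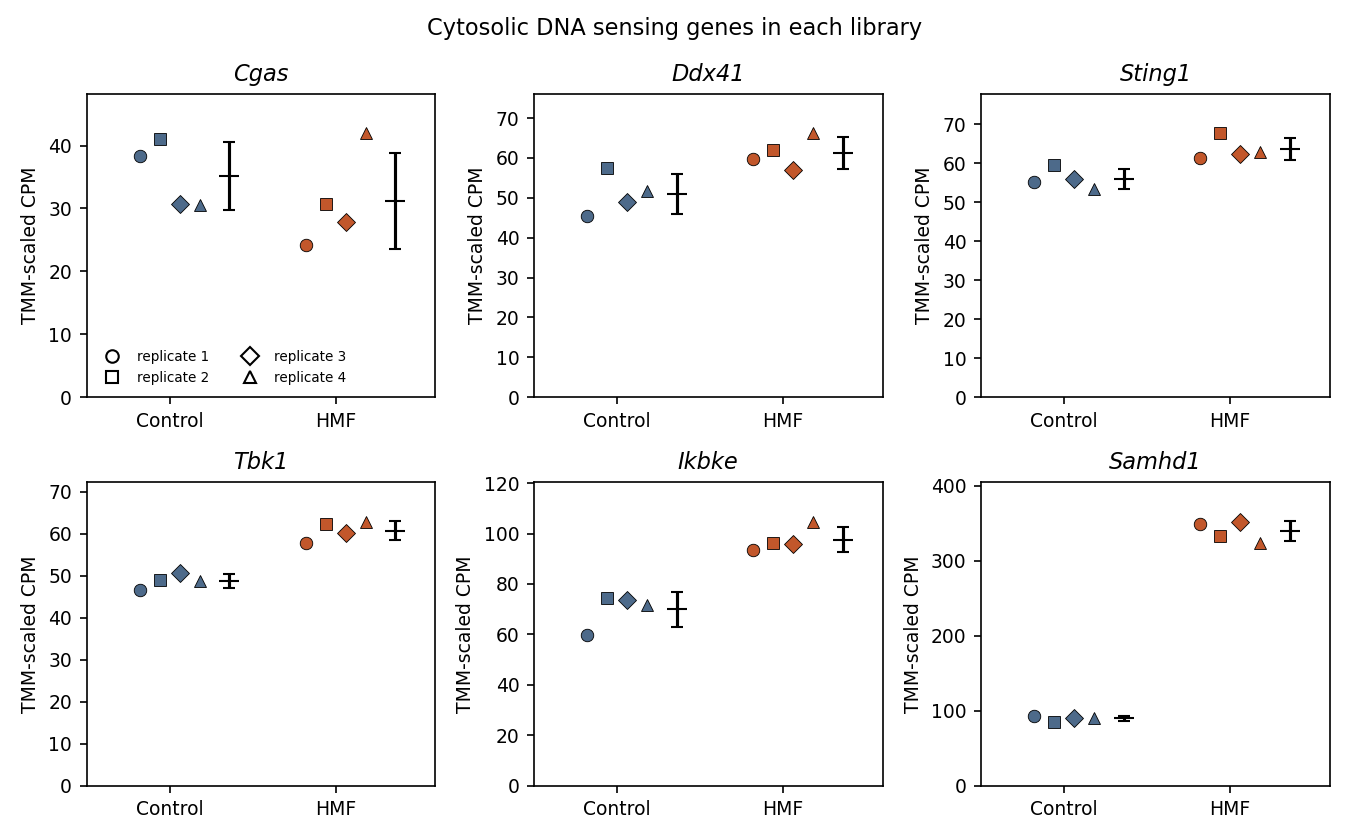
TMM-scaled CPM (linear axis from 0) of the 6 tested genes in each library, with 1 point per library, the marker shape for the replicate number, and the bar for mean ± SD of 4 libraries. Samhd1 lies at 85.1 to 93.1 CPM in Control and 323.3 to 352.4 CPM in HMF, while for Cgas and Ddx41 the groups overlap.

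The promoters of 3 of the genes are printed because they stand for the range of responses: Samhd1 with the largest rise, Ikbke with the next largest, and Cgas with no call. Each runs from 250 bases before to 50 bases after the annotated start, 5′ to 3′ on the gene's strand, from RefSeq on GRCm38.p6. Capitals mark the match to a motif that was searched. The Samhd1 window is chr2:157135047-157135346 on the minus strand, the Ikbke window chr1:131279514-131279813 on the minus strand, and the Cgas window chr9:78443188-78443487 on the minus strand.
Samhd1: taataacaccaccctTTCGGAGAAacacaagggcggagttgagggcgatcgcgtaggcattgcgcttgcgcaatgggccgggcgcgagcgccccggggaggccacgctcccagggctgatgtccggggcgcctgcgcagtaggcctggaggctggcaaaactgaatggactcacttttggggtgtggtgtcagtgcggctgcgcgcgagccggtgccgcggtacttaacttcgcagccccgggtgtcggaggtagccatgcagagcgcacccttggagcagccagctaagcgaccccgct
Ikbke: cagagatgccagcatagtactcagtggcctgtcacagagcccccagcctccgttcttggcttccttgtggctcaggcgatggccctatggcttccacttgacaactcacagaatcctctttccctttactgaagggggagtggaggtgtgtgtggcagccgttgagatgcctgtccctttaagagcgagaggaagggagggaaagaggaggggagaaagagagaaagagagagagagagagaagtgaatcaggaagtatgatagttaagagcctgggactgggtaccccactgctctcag
Cgas: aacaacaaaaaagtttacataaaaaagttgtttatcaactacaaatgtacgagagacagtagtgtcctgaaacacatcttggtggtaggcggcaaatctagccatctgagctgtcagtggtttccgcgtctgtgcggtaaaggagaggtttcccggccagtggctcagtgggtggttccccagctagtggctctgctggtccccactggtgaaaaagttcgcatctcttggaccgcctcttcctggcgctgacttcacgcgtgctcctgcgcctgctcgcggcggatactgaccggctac

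The motifs searched on both strands were the core of the interferon-stimulated response element, the gamma-activated site bound by STAT dimers (TTCNNNGAA, whose fixed letters read the same on both strands), and NF-kB. The Samhd1 window holds 1 gamma-activated site match, TTCGGAGAA, starting at -235 from the annotated start, and the other 2 printed windows hold none of the 3 motifs. Of 32851 promoter windows of the same length, 8.30% hold a gamma-activated site match, 3.44% an interferon-stimulated response element core and 8.46% an NF-kB match. The windows of Tbk1 and Ddx41 hold no match, and of 2 windows listed for Trex1 1 holds an NF-kB match. No window of Sting1 was searched. A match is a string of letters and no measured binding, and a window with no match says only that these letters are not in it.

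Cgas encodes the enzyme that makes cGAMP on binding DNA. Its level was 38.3, 41.1, 30.7 and 30.6 CPM in Control 1 to 4 and 24.2, 30.7, 27.9 and 42.0 CPM in HMF 1 to 4. The highest library of all was HMF 4 and the lowest HMF 1, so the groups overlapped. The mean was 35.2 ± 5.35 CPM in Control and 31.2 ± 7.67 CPM in HMF (SD, n = 4 each), and the log2 fold change of -0.17 ± 0.16 (SE) had a 95% interval of -0.52 to 0.19 and an edgeR adjusted p of 0.491. Without HMF 4 the log2 fold change was -0.35, with an edgeR adjusted p of 0.0595, and it lay between -0.35 and -0.06 over the 8 fits that each left out 1 library.

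Ddx41 encodes a DEAD-box helicase that has been reported to bind DNA and to act through STING. Its level was 45.4, 57.4, 49.0 and 51.8 CPM in Control 1 to 4 and 59.6, 62.0, 56.9 and 66.2 CPM in HMF 1 to 4. HMF 3 lay below Control 2, and the other HMF libraries lay above all of Control. The mean went from 50.9 ± 5.08 to 61.2 ± 3.94 CPM, a rise of 0.27 ± 0.08 on the log2 scale (95% interval 0.09 to 0.45, edgeR adjusted p = 0.0325). This call was lost in 10 of 19 other settings, with adjusted p up to 0.0847; leaving out Control 1, 3 or 4 or HMF 2 or 4 was enough. Of the exonic bases of Ddx41, 17.4% are shared with a gene on the opposite strand.

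Sting1, the gene of the adaptor STING, was at 55.2, 59.6, 55.9 and 53.4 CPM in Control 1 to 4 and at 61.3, 67.7, 62.4 and 62.8 CPM in HMF 1 to 4. The lowest HMF library lay just above the highest Control library. The rise from 56.0 ± 2.58 to 63.5 ± 2.85 CPM was 0.18 ± 0.06 on the log2 scale, with a 95% interval of 0.05 to 0.32 and an edgeR adjusted p of 0.0487. It lost its call in 14 of 19 other settings (adjusted p up to 0.143), among them leaving out any single library other than Control 2, while its direction stayed the same in all 19.

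Tbk1 encodes the kinase that STING recruits and that phosphorylates IRF3. It was at 46.7, 49.1, 50.7 and 48.8 CPM in Control 1 to 4 and at 57.7, 62.2, 60.2 and 62.9 CPM in HMF 1 to 4. All HMF libraries lay above Control, and the spread within each group was small. The rise from 48.8 ± 1.66 to 60.8 ± 2.34 CPM was 0.32 ± 0.06 on the log2 scale (95% interval 0.19 to 0.45, edgeR adjusted p = 0.0024).

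Ikbke encodes IKK-epsilon, a paralog of TBK1 that can also phosphorylate IRF3 and whose transcription is known to be raised by NF-kB and interferon. Its libraries were at 59.6, 74.6, 73.7 and 71.6 CPM in Control and 93.6, 96.1, 95.8 and 104.7 CPM in HMF. Control 1 was the lowest of all, and the groups did not overlap. From 69.9 ± 6.96 to 97.6 ± 4.90 CPM, the rise was 0.48 ± 0.08 on the log2 scale (95% interval 0.31 to 0.65, edgeR adjusted p = 0.00101).

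Whether the paralog kinases moved equally was tested by their ratio within each library, which does not depend on the scaling between libraries. The ratio of Ikbke to Tbk1 FPKM was 0.554, 0.659, 0.630 and 0.636 in Control 1 to 4 and 0.703, 0.670, 0.690 and 0.722 in HMF 1 to 4. Every HMF library was above every Control library, by little in the case of HMF 2 against Control 2. The mean log2 ratio went from -0.69 ± 0.11 to -0.52 ± 0.05, a difference of 0.17 (two-sided exact permutation test, p = 0.0286, the smallest that 4 against 4 libraries can give, and 0.0429 adjusted over 3 ratios). Without Control 1 the difference was 0.12, with an exact permutation p of 0.0571; p was also 0.0571 on leaving out any single HMF library.

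Samhd1 encodes a triphosphohydrolase that breaks down deoxynucleotides, and it is interferon-inducible in several cell types. Its level was 93.1, 85.1, 90.3 and 90.2 CPM in Control 1 to 4 and 349.5, 333.6, 352.4 and 323.3 CPM in HMF 1 to 4. The lowest HMF library was far above the highest Control library, and both groups were tight. The means were 89.7 ± 3.36 and 339.7 ± 13.7 CPM, and the log2 fold change was 1.92 ± 0.06 (95% interval 1.79 to 2.05, edgeR adjusted p = 4.24e-09). By p-value Samhd1 was number 10 of the 15082 genes tested, and by size of rise number 194.

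Set against the sensor, the Samhd1 to Cgas FPKM ratio was 1.10, 0.934, 1.33 and 1.33 in Control and 6.51, 4.90, 5.69 and 3.47 in HMF. HMF 4, the HMF library with the most Cgas, had the lowest ratio of its group and was still above all of Control. The difference in mean log2 ratio was 2.11, or 4.32-fold (exact permutation p = 0.0286, 0.0429 adjusted over the 3 ratios). Samhd1 by itself had already separated the groups, with 1.92 on the log2 scale against -0.17 for Cgas. This ratio is therefore no result separate from the rise of Samhd1. The Sting1 to Cgas ratio was 2.17, 2.18, 2.74 and 2.63 in Control and 3.81, 3.32, 3.36 and 2.25 in HMF, and the groups overlapped through HMF 4. Its difference of 0.37 had an exact permutation p of 0.0857 (0.0857 adjusted), and without HMF 4 it was 0.53 with p = 0.0286 by the same exact test. Leaving out any other single library gave differences of 0.28 to 0.43, with exact permutation p from 0.0857 to 0.229. No ratio of Trex1 to Cgas could be formed because Trex1 was at 0.

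**Figure D2:**
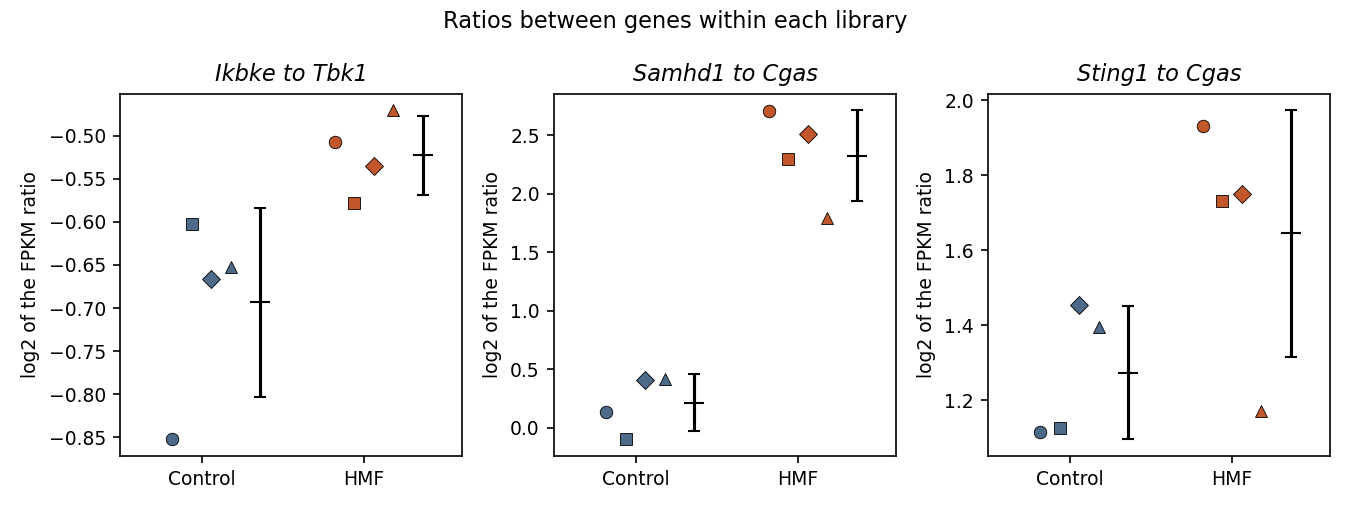
Log2 of the FPKM ratio between gene pairs in each library (the marker shape gives the replicate number; bars are mean ± SD of 4 libraries; the axes do not start at 0). The Samhd1 to Cgas ratio separates the groups by 2.11, the Ikbke to Tbk1 ratio by 0.17, and in the Sting1 to Cgas panel HMF 4 lies at 1.17 among the Control libraries.

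**Figure D3:**
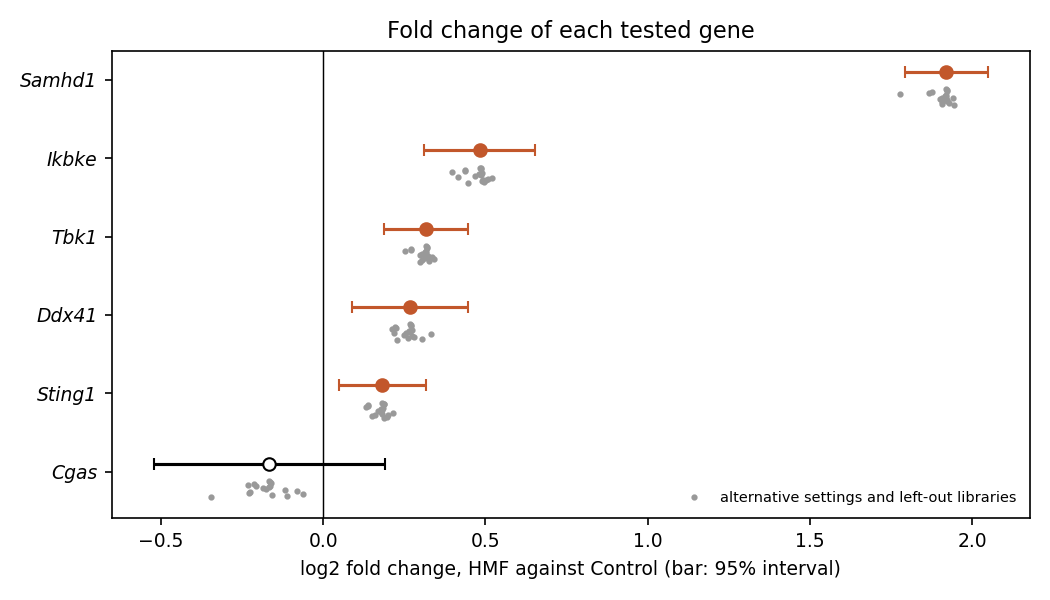
Log2 fold change of HMF against Control for the 6 tested genes, as points with 95% intervals from edgeR, filled where called, with small grey points below each for the other settings and the fits without 1 library. Samhd1 at 1.92 stands apart from the other 5, whose values run from -0.17 to 0.48, and the interval of Cgas spans 0.

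Trex1, the gene of the main exonuclease of cytosolic DNA, had 0 counts in all 8 libraries. In the deposited table its span of 1802 bases lies 100% inside that of Atrip on the same strand. In the GENCODE M21 annotation of GRCm38, all of its 1147 exonic bases are also exonic in another gene. Of 21928 protein-coding genes matched by identifier, 140 share all their exonic bases with a gene on the same strand, and 140 of these 140 had 0 counts in every library. Of 33 that share all of them with a gene on the opposite strand only, 32 (97.0%) were at 0. The share at 0 was 27.9% where over 50% but not all of the bases were shared, 10.5% where up to 50% were shared, and 32.2% where none was. The 0 is therefore given as listed and not as a level of Trex1, and the handling of reads on shared bases by the counting step is not given in the sources used here. Atrip, which encodes the partner of the checkpoint kinase ATR and has 84.0% of its exonic bases unshared, was at 25.9 ± 0.828 CPM in Control and 25.2 ± 3.69 CPM in HMF, with a log2 fold change of -0.04 ± 0.10 and an edgeR adjusted p of 0.818.

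**Figure D4:**
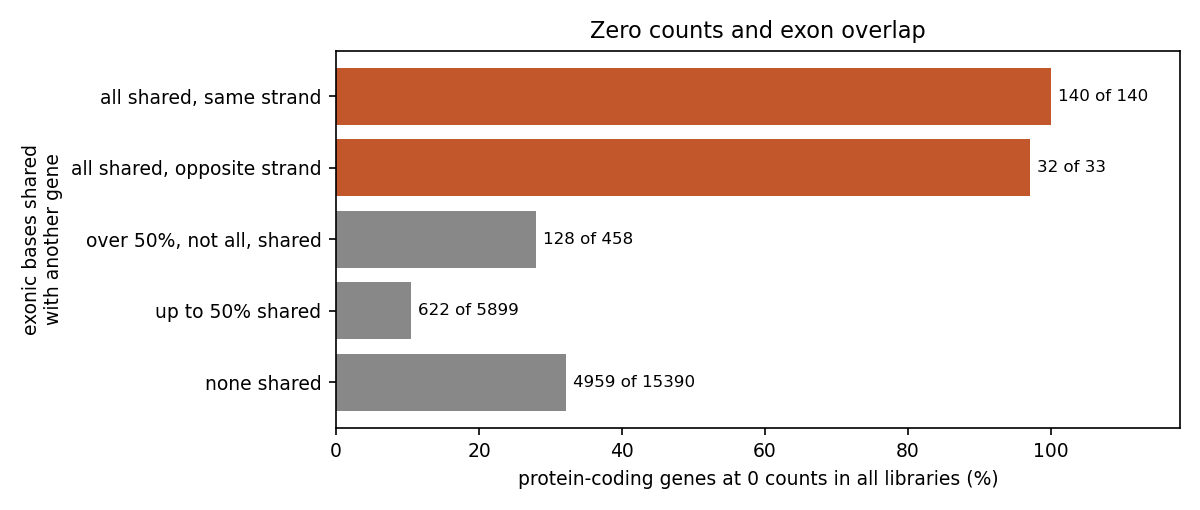
Share of protein-coding genes with 0 counts in all 8 libraries (percent, linear axis from 0), by how much of their exonic sequence is shared with another gene in GENCODE M21. All 140 genes that are fully shared on the same strand, Trex1 among them, were at 0, against 32.2% of the genes that share none.

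Levels per length were compared between genes by FPKM, the count scaled to gene length and library total. In Control, the order from low to high was Ikbke at 7.86 ± 0.805, Cgas at 8.64 ± 1.26, Samhd1 at 9.94 ± 0.398, Tbk1 at 12.7 ± 0.510, Ddx41 at 19.2 ± 1.87 and Sting1 at 20.7 ± 0.896 FPKM. The libraries of Ikbke, Cgas and Samhd1 overlapped from each to the next, as did those of Ddx41 and Sting1. In HMF the order was Cgas at 7.42 ± 1.74, Ikbke at 10.6 ± 0.434, Tbk1 at 15.3 ± 0.470, Ddx41 at 22.4 ± 1.17, Sting1 at 22.8 ± 0.956 and Samhd1 at 36.5 ± 1.91 FPKM, with overlap only between Ddx41 and Sting1 among neighbours. Samhd1 thus went from among the lower of the 6 to the highest. The order rested on the length used: the deposited length of Ikbke is 9018 bases and that of Samhd1 9150, while their longest coding transcripts hold 3251 and 3926 bases. Per longest coding transcript, Control levels were 8.80 for Cgas, 16.4 for Tbk1, 21.8 for Ikbke, 23.2 for Samhd1, 23.4 for Ddx41 and 24.7 for Sting1, and Samhd1 was again the highest in HMF at 85.1, with Cgas the lowest at 7.56.

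Over 8 lists of genes around the pathway, 126 of 134 listed genes were tested, of which 36 rose, 23 fell and 67 were not called, so that 46.8% were called against 26.7% of all tested genes. The median log2 fold change was 0.01. Because the lists were chosen with earlier results of these data known, the called share is no independent test. The lists moved in different directions, from a median of 2.65 for the pathway's output genes to -0.84 for the genes of deoxynucleotide synthesis and the kinases of SAMHD1.

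**Figure D5:**
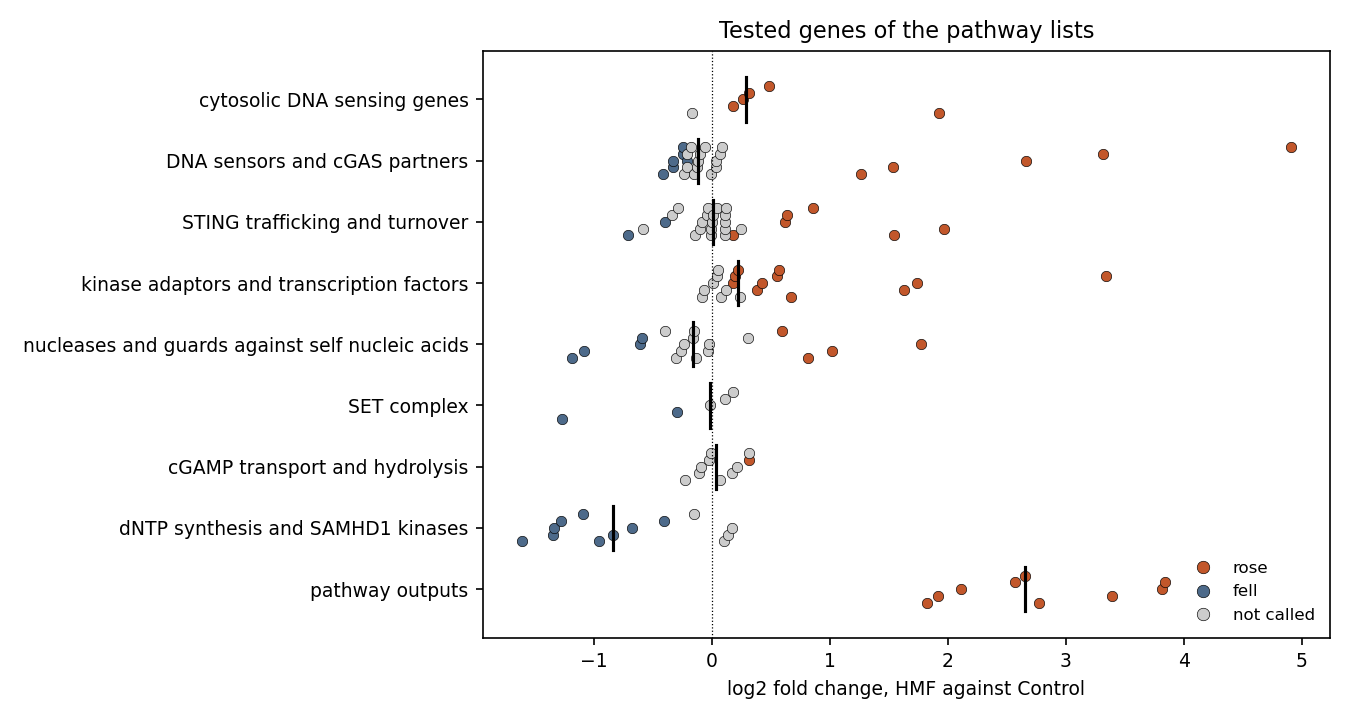
Log2 fold change of HMF against Control for each tested gene of the 7 described and of the 8 lists around them, with 1 point per gene coloured by edgeR call and a black bar at the median of each list. The output genes lie at 1.82 or above, the deoxynucleotide list has a median of -0.84, and the other lists have medians between -0.16 and 0.22.

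Of 25 tested genes of other DNA sensors and partners of cGAS, 5 rose and 6 fell, with a median of -0.12. Of all tested genes, 13.7% rose and 13.0% fell. Those that rose were Zbp1, a sensor of Z-form nucleic acid (4.91 ± 0.14), Aim2, the DNA sensor of an inflammasome (3.31 ± 0.58), the related p200 family genes Ifi204 (2.66 ± 0.10) and Ifi203 (1.53 ± 0.08), and Trim14, which stabilises cGAS (1.26 ± 0.13). Aim2 was rare, at 0.162 ± 0.132 CPM in Control and 1.57 ± 0.901 CPM in HMF, and its log2 fold change was 3.93 without Control 2. Those that fell did so by less. They were Rad50, a subunit of the complex that binds DNA ends (-0.42), the chromatin protein gene Hmgb1 (-0.33) and the DNA-damage enzyme gene Parp1 (-0.33). Prkdc and Xrcc5 of DNA-dependent protein kinase (-0.25 each) and Nono (-0.21) also fell. The edgeR adjusted p was 0.042 for Prkdc, 0.0133 for Xrcc5 and 0.0162 for Nono. Whether these calls are kept under other settings was not examined. Banf1, whose product covers nuclear DNA and keeps cGAS off it, had a log2 fold change of -0.23 ± 0.09 (edgeR adjusted p = 0.0831).

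Of 27 tested genes of STING trafficking and turnover, 6 rose and 2 fell, with a median of 0.01. The called share of 29.6% was near the 26.7% of all tested genes, so the genes named next are values of single genes and not a result about the list. The rises were in Usp18 (1.97 ± 0.08) and Trim30a (1.54 ± 0.07), both known as interferon-inducible, and Rhbdf2, which encodes iRhom2, a stabiliser of STING (0.86 ± 0.08). Sqstm1, the gene of the autophagy receptor p62 (0.64), and Trim56, a ubiquitin ligase gene (0.62 ± 0.06), also rose. So did Ssr2 (0.18, edgeR adjusted p = 0.031), by least. Rnf5, whose product marks STING for degradation, fell from 22.0 ± 1.47 to 13.4 ± 2.46 CPM (-0.71 ± 0.13, edgeR adjusted p = 0.00177). Stim1, the calcium sensor of the endoplasmic reticulum that holds STING there, fell from 85.9 ± 5.30 to 65.4 ± 3.44 CPM (-0.39 ± 0.07, edgeR adjusted p = 0.00121).

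Among the 19 genes of kinase adaptors and transcription factors, 11 rose and none fell, with a median of 0.22. Over all tested genes, 13.7% rose and 13.0% fell. Irf3, the direct substrate of TBK1, was not called: it was at 60.8 ± 2.77 CPM in Control and 63.1 ± 2.71 CPM in HMF (0.05 ± 0.06, edgeR adjusted p = 0.565). The related Irf7 rose from 212.5 ± 11.98 to 658.3 ± 32.7 CPM (1.63 ± 0.06), and Irf5, low in Control at 0.903 ± 0.450 CPM, reached 9.18 ± 3.05 CPM (3.34 ± 0.33). Genes of TBK1 adaptors rose by less: Azi2, which encodes NAP1, by 0.67 ± 0.07 and Tank by 0.20 (edgeR adjusted p = 0.0343). Tbkbp1, which encodes SINTBAD, was at 0.24 with an edgeR adjusted p of 0.118. The genes of NF-kB subunits, Rela (0.55) and Nfkb1 (0.42), rose, as did the deubiquitinase genes Cyld (0.57 ± 0.06) and Tnfaip3 (1.73), which restrain NF-kB.

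The 18 tested nucleases and guards against self nucleic acids divided evenly, with 4 that rose, 4 that fell and a median of -0.16, where 13.7% of all tested genes rose and 13.0% fell. Ifih1, which encodes the RNA sensor MDA5 (1.77 ± 0.10), Pnpt1 of mitochondrial RNA degradation (1.02 ± 0.13), the helicase gene Mov10 (0.82 ± 0.06) and the RNA-editing enzyme gene Adar (0.59 ± 0.06) rose. Exo1, an exonuclease gene of DNA repair (-1.19 ± 0.21), Fen1, the flap endonuclease gene (-1.08 ± 0.30), Rnaseh2c (-0.61 ± 0.11) and Dnase2a, the lysosomal DNase gene (-0.59), fell. Fen1 has only 15.8% of its exonic bases unshared and 106 counts in all 8 libraries, and its call was lost on leaving out Control 1, Control 2, HMF 1, HMF 2 or HMF 3. Of the subunits of RNase H2, which removes RNA from DNA, Rnaseh2c fell from 37.2 ± 4.67 to 24.3 ± 2.95 CPM, while Rnaseh2a (-0.03 ± 0.10, edgeR adjusted p = 0.831) and Rnaseh2b (-0.31 ± 0.16, edgeR adjusted p = 0.186) were not called. In the SET complex, which works with TREX1, 2 of 5 tested genes fell (against 13.0% of all tested genes), Hmgb2 (-1.27 ± 0.15) and Anp32a (-0.30 ± 0.07), and the median was -0.02.

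SAMHD1 acts against the supply of deoxynucleotides and is phosphorylated by cyclin-dependent kinases. Of 13 genes of deoxynucleotide synthesis and of these kinases, 9 fell and none rose, with a median of -0.84. Of all tested genes, 13.0% fell. The largest fall was in Ccna2, from 108.2 ± 22.7 to 35.2 ± 7.41 CPM (-1.61 ± 0.17), followed by Cdk1, from 123.3 ± 21.8 to 48.5 ± 7.64 CPM (-1.34 ± 0.14). Tk1, the thymidine kinase gene, fell from 124.4 ± 20.5 to 51.2 ± 9.85 CPM (-1.28 ± 0.15), and Rrm1, the large subunit gene of ribonucleotide reductase, from 641.1 ± 79.7 to 301.2 ± 53.5 CPM (-1.09 ± 0.13). Ccna2 and Cdk1 are also general markers of dividing cells. Cdk1 was at 142.0, 142.3, 102.9 and 106.1 CPM in Control 1 to 4 and 46.2, 51.4, 39.1 and 57.1 CPM in HMF 1 to 4. Tk1 ran much alike, at 141.5, 142.8, 104.9 and 108.5 CPM and 47.6, 54.0, 40.0 and 63.2 CPM. Cdk2 (-0.84 ± 0.18) ran otherwise, at 514.2, 629.8, 661.9 and 671.8 CPM and 434.0, 346.7, 388.3 and 216.5 CPM. Rrm2 had a log2 fold change of -1.34 ± 0.19. Of genes named above, Hmgb2 was at 272.2, 257.6, 191.0 and 196.6 CPM in Control and 80.6, 95.1, 84.3 and 120.5 CPM in HMF. Exo1 was at 38.0, 37.7, 28.7 and 24.2 CPM in Control and 11.7, 13.8, 10.4 and 20.1 CPM in HMF. The part of cell division in the falls of this list and of Hmgb2, Exo1 and Rnaseh2c was not tested. Of 10 tested genes of cGAMP transport and breakdown, only Lrrc8b, a subunit gene of the volume-regulated channel, was called, with a rise of 0.31 ± 0.08. This called share of 10% lay below the 26.7% of all tested genes. Enpp1, which encodes the enzyme that hydrolyses cGAMP outside cells, was low at 2.41 ± 0.337 CPM in Control and 2.07 ± 0.642 CPM in HMF (-0.23 ± 0.23, edgeR adjusted p = 0.507).

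All 9 tested output genes rose, against 13.7% of all tested genes, with a median of 2.65. These genes also answer to other sensors and to NF-kB. The largest rises of the list were in Il6 (3.84 ± 0.53), Tnf (3.82 ± 0.32), Cxcl10 (3.39 ± 0.22) and Ccl5 (2.77 ± 0.17). Of the 10 genes listed, Ifna4 was not tested. It had 11, 3, 7 and 8 reads in Control 1 to 4 and 2, 13, 2 and 40 in HMF 1 to 4, so the groups overlapped. Ifnb1 had 17, 8, 14 and 10 reads in Control 1 to 4 and 47, 49, 45 and 168 in HMF 1 to 4. All HMF libraries were above Control, and HMF 4 was far above the others. In CPM the means were 0.748 ± 0.219 and 4.69 ± 2.87, and the log2 fold change was 2.65 ± 0.42 (edgeR adjusted p = 0.000845) and 2.10 without HMF 4. Rsad2, Ifit3, Ifit1 and Isg15, all interferon-stimulated, rose by 2.57 ± 0.11, 2.11 ± 0.08, 1.91 ± 0.08 and 1.82 ± 0.08 on the log2 scale.

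The genes whose pattern over the 8 libraries was most like that of each called gene were found by the root mean square difference of log2 CPM, each gene centred on its own mean, among 11065 genes. Where groups are tight and far apart, as for Samhd1, this measure mostly follows the fold change. A near gene is then one that rose by a like amount. Closest to Samhd1 were Sp100 (0.06), Tmem229b (0.08) and Cd47 (0.08), against a median of 0.97 over all candidates. Sp100 rose by 1.93 ± 0.06 and Cd47 by 1.81 ± 0.05. For Ikbke they were Ano10, Esyt1 and Usf1 (0.06 each to 2 decimals, with a median of 0.31 over all), and for Tbk1 Asb8, Phf23 and Dync1h1 (0.04 each, with a median of 0.23). For Sting1 they included Ppp3ca and Sgk3 (0.04 each, with a median of 0.19) and for Ddx41 Ccnj, Tmem65 and Cipc (0.03 to 0.04, with a median of 0.23). Ppp3ca was itself called (0.20 ± 0.07, edgeR adjusted p = 0.0452) and Sgk3 was not (0.21 ± 0.08, edgeR adjusted p = 0.0682), and the call of Ppp3ca, like those of Tmem65 and Cipc, was lost under several other settings.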

How the data were processed

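RNA of 4 Control and 4 HMF samples was analysed, grouped by sample title. The deposited table holds raw read counts per gene, made by the authors and not normalized, and the deposited FPKM values of the same 8 libraries. Polyadenylated RNA was captured, per the labels' protocols. Per the submitters' processing notes, the build was mm10 and the tools included HISAT2 2.0.5, Trimmomatic, DESeq2 and HTSeq, whose roles, annotation and use of strand were not given in the sources used here. Gene lengths behind the deposited FPKM equalled the summed exon length of GENCODE M21 within 0.5 base for 15255 of 15604 genes with 10 or more counts (97.8%). Gene positions of the table were used only to set the span of Trex1 against that of Atrip.

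Counts were scaled by TMM, filtered by filterByExpr and tested with edgeR 4.0.16 (R 4.3.3) by the quasi-likelihood test with group as the only term, with Benjamini-Hochberg adjustment over 15082 genes and a threshold of 0.05. CPM are TMM-scaled, as mean ± SD of 4 libraries; fold changes are log2 ± SE. Ratios used FPKM within each library and an exact permutation test over 70 arrangements, whose smallest p is 0.0286. Sampling error alone did not account for the difference of any pair of libraries of a group (chi-square per degree of freedom 2.20 to 31.9). Replicates were not evenly spread. In Control the value was 2.20 for Control 3 against 4, 8.55 for Control 1 against 2, and 15.7 to 18.8 for the other pairs. In HMF it was 16.2 to 31.9 for pairs with HMF 4 and 3.96 to 6.93 for the others. The cause was not tested.

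The 7 genes and the lists were chosen with earlier results of these data known. Named genes are the 7; in each list up to 4 called genes with the smallest adjusted p and up to 2 called against the list's main direction; 9 preset genes (Irf3, Irf7, Ifnb1, Enpp1, Banf1, Adar, Rnaseh2a, Rnaseh2b and Rnaseh2c); and 3 neighbours of each called gene, of which 1 is not reported here. Others (Rad50, Hmgb1, Parp1, Prkdc, Xrcc5, Nono, Sqstm1, Ssr2, Tank, Tbkbp1, Rela, Nfkb1, Tnfaip3, Dnase2a, Rrm2, Cdk2, Il6, Tnf, Cxcl10, Ccl5, Ifna4, Lyz2, Ptprc, Csf1r, Fcgr1, Cd14, Polr3k and Atrip) were named after their values were seen. Alternatives were RLE, upper quartile or library size scaling, other count filters, the replicate number as a block, DESeq2 1.42.0, limma 3.58.1 (voom, and log2 FPKM with pseudocounts of 1 and 0.1), a threshold of 0.01, and leaving out each library. The planned Trex1 to Cgas ratio had no value. Levels per longest coding transcript were added after the data were seen. Promoters of 6 of the 7 genes were searched, from the RefSeq table. The search left out chromosome 18, which holds Sting1, so no window of Sting1 was examined. Figures were drawn with matplotlib 3.10.9 in Python 3.11.15.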

Additional observations from a re-analysis of the deposited data

Results flagged for a closer look

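Measures of single groups of 4 libraries were compared with Dixon's 95% critical value for 4 samples, which chance passes in about 1 in 20 groups, and 7 of 140 groups passed. In 5 of them HMF 4 stood apart among the HMF libraries. Its total count of 19295358 was above the others (gap over range 0.847), as were its Ifnb1 at 8.99 CPM against 3.19 to 3.35 CPM (0.972), its Zbp1 at 196.7 CPM against 137.6 to 142.9 CPM (0.912) and its Rnaseh2c at 28.7 CPM against 22.3 to 23.3 CPM (0.847). Cipc, a neighbour of Ddx41, was at 124.9 CPM in HMF 4 (0.876). In Control, Control 3 had the highest Anp32a at 252.0 CPM (0.85) and Control 1 the lowest Esyt1 at 24.0 CPM (0.856). None of the 6 tested genes of the pathway passed this threshold in either group; Trex1, at 0 throughout, was not examined.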

How the results depend on the processing

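Samhd1 (1.78 to 1.95), Ikbke (0.40 to 0.52) and Tbk1 (0.25 to 0.34) kept their calls and direction under all 19 alternatives, and Cgas was called under none. The members called, HMF against Control, numbered 5 and were 3 by library size alone, by limma on log2 FPKM with either pseudocount, at an adjusted p below 0.01 and with the replicate block, 4 by upper quartile scaling or with no count filter, and 3 to 5 on leaving out 1 library. Changed genes, HMF against Control, numbered 4030 and were 2288 at an adjusted p below 0.01, 2785 with the replicate block, 3140 to 3804 on leaving out 1 library and 3913 to 4258 otherwise. With library size alone 1743 rose and 2435 fell, and by limma on log2(FPKM + 1) 1625 rose and 2311 fell. Deviations of same-numbered libraries had r from -0.32 to 0.22, so pairing by number was not established. With the replicate block, as pairs, the Ikbke to Tbk1 ratio (0.17) and the Samhd1 to Cgas ratio (2.11) each had an exact p of 0.125, the smallest 4 pairs can give. On leaving out 1 library the Ikbke to Tbk1 ratio ran from 0.12 to 0.20, the Samhd1 to Cgas ratio from 1.99 to 2.29 and the Sting1 to Cgas ratio from 0.28 to 0.53. Rnaseh2a, never called at -0.03, turned positive without Control 2 (0.02) and without HMF 1 (0.04) and ran from -0.0922 to 0.0446 on leaving out 1 library. The causes were not tested. Low counts limit Aim2, Ifnb1, Fen1 and Enpp1.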

Other observations

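The table's own annotation names a cytosolic DNA-sensing pathway, examined after the data were seen. Of 60 genes it lists, 42 were tested, 25 rose, 1 fell (Polr3k, -0.20) and 16 were not called, where 13.7% of all tested genes rose and 13.0% fell, with a median log2 fold change of 0.30 against -0.02 over all tested genes. It holds 4 of the 7 genes described here. Many of its genes that rose, among them Zbp1, Irf7, Ccl5 and Cxcl10, are also in the lists above. These counts are therefore not independent of those lists.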
